A study of Mus musculus with 24 samples.

Results

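Keratin-associated proteins are the matrix proteins of hard keratin, and their genes were followed here through digit tips healing after amputation at 2 levels. The genes were taken by name: every row of the deposited expression table whose gene name starts with Krtap was a member, which gave 38 genes of 15055 rows. They fall into 20 subfamilies by the number after Krtap, 13 of which have 1 measured gene. RefSeq names 56 mouse genes Krtap, so the 38 measured members are not the whole family.

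The tissue was the hind limb digit tip of C57BL/6 mice aged 10-12 weeks, dissected whole, so that epidermis, dermis, bone, cartilage and marrow were pooled in each RNA sample. Toes were cut either distally or proximally and collected 12, 14 or 21 days later (days post amputation), with 4 libraries in each of the 6 groups: distal at 12, 14 and 21 days and proximal at 12, 14 and 21 days. In adult mice a digit tip cut through the distal part of its last bone regrows, whereas a more proximal cut heals without regrowth. All groups were amputated and no uninjured digit was analysed here. The labels name no nail, do not say how many animals a library holds and do not say that replicates are separate animals, so p-values measure only the spread between these libraries.

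Hard keratin, the material of hair shafts and nail plates, is made of keratin filaments embedded in a matrix of keratin-associated proteins, which are cross-linked to the filaments and to each other through the disulfide bonds of their cysteines. These small proteins are grouped by composition into high sulfur, ultra-high sulfur and high glycine-tyrosine classes, and their genes, mostly without introns, lie in clusters and are switched on late, as hair and nail matrix cells leave the cell cycle and harden. In the digit tip the nail makes hard keratin. Hair shafts hold it too, and these bulk values do not tell nail from hair. By subfamily number, 13 members belong to the high sulfur class (subfamilies 1, 2, 3, 11, 13, 24, 26 and 27), 11 to the ultra-high sulfur class (4, 9 and 17) and 12 to the high glycine-tyrosine class (6, 7, 8, 19, 20, 21 and 22). Krtap16-3 and Krtap28-10 were left without a class.

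In GENCODE vM21 on GRCm38 (mm10), 18 members lay on chromosome 11 between positions 99550130 and 99993994, a stretch of 444 kb. Another 19 lay on chromosome 16 between 88610705 and 89571183, a stretch of 960 kb, and Krtap28-10 stood alone on chromosome 1 (83041524 to 83042480). The chromosome 11 cluster held subfamilies 1, 2, 3, 4, 9 and 17, and the chromosome 16 cluster held every high glycine-tyrosine gene together with Krtap11-1, the 2 genes of subfamily 13, Krtap16-3, Krtap24-1, Krtap26-1 and Krtap27-1. Of the 38 genes, 27 spanned exactly as many bases in the genome as the length given in the deposited table. Lengths in the table ran between 380 bases for Krtap22-2 and 1571 bases for Krtap24-1.

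RefSeq promoter windows on GRCm38.p6, running from 250 bases before to 50 bases after the start of a gene, were found for 34 of the 38 members. The 6 sequences shown here are the 100 bases just before the RefSeq start, read 5′ to 3′ on the gene's strand (minus for all 6), and were chosen to cover both clusters, all 3 classes and the genes that the comparisons turn on. Capitals mark TATAAA, the core of a TATA box.
Krtap1-5: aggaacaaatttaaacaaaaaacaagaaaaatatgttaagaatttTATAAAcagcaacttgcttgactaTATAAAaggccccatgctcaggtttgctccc
Krtap9-3: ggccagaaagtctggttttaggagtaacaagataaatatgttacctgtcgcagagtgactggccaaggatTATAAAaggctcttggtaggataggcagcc
Krtap11-1: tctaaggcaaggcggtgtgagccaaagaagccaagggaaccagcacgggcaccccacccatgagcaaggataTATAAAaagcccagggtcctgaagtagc
Krtap16-3: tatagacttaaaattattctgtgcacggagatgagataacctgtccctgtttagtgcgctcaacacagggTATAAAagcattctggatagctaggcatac
Krtap8-1: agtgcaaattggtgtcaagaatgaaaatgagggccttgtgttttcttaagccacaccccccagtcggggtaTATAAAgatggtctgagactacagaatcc
Krtap26-1: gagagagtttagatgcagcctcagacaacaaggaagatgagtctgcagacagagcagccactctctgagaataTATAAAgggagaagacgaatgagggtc

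These stretches are chr11:99581017-99581116 for Krtap1-5, chr11:99598107-99598206 for Krtap9-3, chr16:89571184-89571283 for Krtap11-1, chr16:88962874-88962973 for Krtap16-3, chr16:89487953-89488052 for Krtap8-1 and chr16:88647797-88647896 for Krtap26-1. The TATAAA nearest the start began 30 bases before it in Krtap9-3 and Krtap16-3, 29 in Krtap8-1, 28 in Krtap11-1 and 27 in Krtap26-1, and Krtap1-5 held a further copy 55 bases before its start. On the gene's strand, TATAAA occurred in 31 of the 34 member windows, 91.2%, and in 8.32% of all 32851 RefSeq promoter windows of 300 bases. Counting only copies that began 40 to 20 bases before the start, 23 members held it, 67.6%, and 1.99% of all windows did. Words bound by HOXC13, the homeobox factor of hair and nail, were searched on both strands as TTTATNAA, TTTATNAG, TTTATNGA, TTTATNGG, TTAATNAA, TTAATNAG, TTAATNGA and TTAATNGG, where N is any base. At least 1 was found in 20 members, 58.8%, and in 18.9% of all windows. Some of these words can overlap TATAAA, and 18 members, 52.9%, held a word clear of it, against 17.1% of all windows. These are matches of letters in a window and do not show that a factor binds there.

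Members share sequence with one another and with neighbouring gene models, so reads may be split between them. In GENCODE transcripts, 10 members shared no stretch of 50 bases with another gene, 13 shared over 10% of theirs, and the median was 6.77%. The highest shares were in Krtap4-13, with 81.3%, the gene model Gm11554 sharing most, in Krtap2-4, with 43.8%, and in Krtap3-3, with 41.3%, all of it shared with Krtap3-2. Krtap9-1 shared 36.6%, with the gene model Gm11559 as its main partner. The values of these genes are uncertain to that extent.

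The deposited values are whole numbers that look normalised and rounded, with upper quartiles of 902.5 to 930.5 in every library and totals of 15264829 to 19351055, and how many reads lie behind them is unknown. They were tested on the scale of log2(value + 1) with limma over all 15055 rows, and a gene was called at a Benjamini-Hochberg adjusted p under 0.05. Fold changes on this scale understate the change of low genes. A pair of libraries stood apart from their groups for the Krtap genes. Replicate 4 of distal at 21 days had the highest value of its group in 33 of 38 members, against 26.7% of all rows, and replicate 1 of proximal at 12 days had the highest value of its group in 37 of 38 members, against 23.1% of all rows. Krtap counts that rest on them are mostly given with and without them. Results for hard keratins, regulators, enzymes and markers are given with all libraries only.

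**Figure D1:**
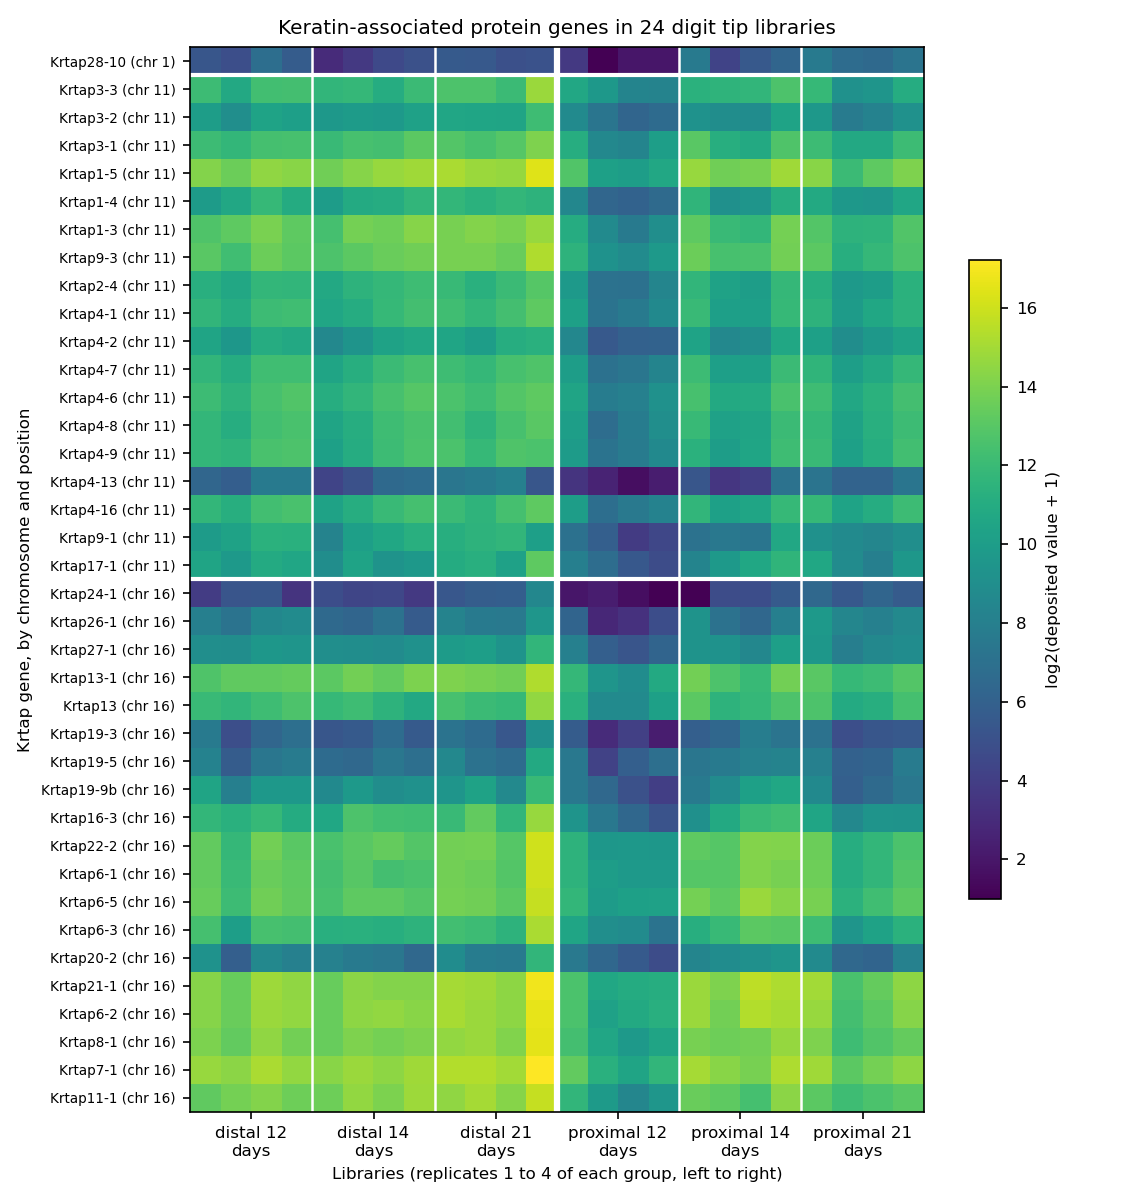
Deposited values of the 38 Krtap genes as log2(value + 1), 1 row per gene in chromosomal order and 1 column per library, with replicates 1 to 4 of each group left to right. The 3 low columns of proximal at 12 days and the high last column of distal at 21 days stand out across both clusters.

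Within the family the levels spanned a wide range. Per 1000 bases of gene length and averaged over all 24 libraries, Krtap7-1, a high glycine-tyrosine gene, was highest at 45827, and Krtap24-1, a high sulfur gene, was lowest at 28.3, a 1621-fold range. Krtap7-1 led in 22 of the 24 libraries and Krtap21-1 in the other 2. The next levels per 1000 bases were 32070 for Krtap21-1, 29202 for Krtap8-1, 28728 for Krtap6-2 and 28151 for Krtap22-2, all high glycine-tyrosine genes, followed by 19725 for Krtap1-5, the highest of the high sulfur genes. The highest ultra-high sulfur gene was Krtap9-3 at 12136, and the highest of subfamily 4 was Krtap4-6 at 4536. In distal digits at 12 days Krtap21-1 stood at 27867 ± 10096, Krtap8-1 at 27583 ± 9511 and Krtap6-2 at 26842 ± 9002 per 1000 bases (SD, n = 4), and these neighbours did not differ beyond their spread. At the low end were Krtap26-1 at 259, Krtap19-3 at 185, Krtap4-13 at 109 and Krtap28-10 at 60.0 per 1000 bases. Krtap7-1, Krtap21-1, Krtap6-2, Krtap1-5 and Krtap8-1 together made up 40.3% to 52.5% of the summed Krtap value in each library.

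Summed over the 38 genes, Krtap values made up 1.36%, 0.891%, 1.92% and 1.53% of the table total in distal digits at 12 days, and 0.471%, 0.111%, 0.0979% and 0.142% in proximal digits at 12 days. At 14 days the sums were 0.921%, 1.40%, 1.48% and 1.70% in distal digits and 1.47%, 0.989%, 1.5% and 2.16% in proximal digits. At 21 days they were 2.13%, 2.08%, 1.73% and 5.85% in distal digits and 1.57%, 0.440%, 0.674% and 1.24% in proximal digits. All 4 proximal libraries at 12 days lay below every other library except that replicate 1 of that group exceeded replicate 2 of proximal at 21 days. The group means were 1.43% ± 0.427 in distal against 0.206% ± 0.178 in proximal digits at 12 days, 1.38% ± 0.329 against 1.53% ± 0.481 at 14 days, and 2.95% ± 1.94 against 0.981% ± 0.516 at 21 days (SD, n = 4 each). Without replicate 4, distal digits at 21 days averaged 1.98% ± 0.220 (SD, n = 3), and without replicate 1, proximal digits at 12 days averaged 0.117% ± 0.0227 (SD, n = 3).

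**Figure D2:**
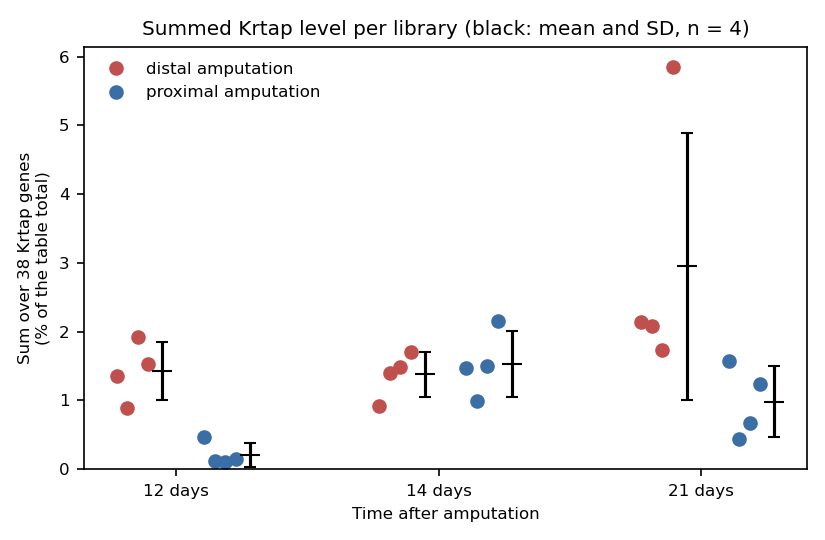
Sum of the 38 Krtap genes in each library, as a percentage of the table total, by days after amputation, with distal libraries left of proximal ones and black bars for the mean and SD (n = 4). Proximal digits at 12 days sit at 0.0979% to 0.471%, and 1 distal library at 21 days reaches 5.85%.

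At 12 days the family was higher after distal amputation almost throughout. Of the 38 genes, 36 were called higher in distal digits, where 9.25% of all rows were, and none lower, where 11% of all rows were. All 38 differences were above 0. On the log2 scale they ran between 1.14 and 5.42 with a median of 3.21, against a median of all rows near 0 (-0.03). In 34 members no distal library overlapped a proximal one, where 10.4% of all rows were higher without overlap. Every class took part: all 13 high sulfur genes (median log2 2.92), all 11 ultra-high sulfur genes (3.75) and 10 of 12 high glycine-tyrosine genes (2.92) were called. Without replicate 1 of proximal at 12 days the count was again 36 and the median 3.79.

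Krtap9-1, an ultra-high sulfur gene (chromosome 11, 99873389 to 99874432, plus strand), differed most. Its values were 967, 1323, 2647 and 2522 in distal digits, and 134, 60, 13 and 21 in proximal digits. Every distal library lay far above every proximal one, and the proximal group itself spread widely. The means were 1865 ± 845 and 57.0 ± 55.3 (SD, n = 4 each), a log2 difference of 5.42 ± 0.73 (SE; limma, adjusted p = 2.13e-05).

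Krtap16-3, a gene without a class here (chromosome 16, 88962273 to 88962873, minus strand), had 3479, 2483, 3763 and 1996 in distal digits, and 663, 181, 83 and 34 in proximal digits. Its lowest distal library was above its highest proximal one (log2 4.37 ± 0.78, SE; limma, adjusted p = 0.000388). Krtap4-13, the lowest gene of subfamily 4, had 79, 57, 199 and 203 in distal digits, and 10, 5, 2 and 4 in proximal digits (log2 4.39 ± 0.71, SE; limma, adjusted p = 0.000155). Among the abundant genes, Krtap11-1, a high sulfur gene, had 9575, 14632, 18626 and 12860 in distal digits, and 3296, 901, 351 and 736 in proximal digits. The groups did not overlap, and replicate 1 was the highest proximal library here as in most members (log2 3.85 ± 0.50, SE; limma, adjusted p = 1.34e-05).

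Krtap7-1, the most abundant member, had 27153, 21264, 37249 and 25140 in distal digits, and 10223, 2527, 1440 and 3311 in proximal digits. It was 8.14-fold higher in distal digits without overlap (limma, adjusted p = 0.000196). Krtap1-5, the most abundant high sulfur gene, was 9.37-fold higher (limma, adjusted p = 0.000214), at 18966 ± 4890 in distal and 2784 ± 2987 in proximal digits (SD, n = 4 each). Krtap1-3 was 18.1-fold higher and Krtap17-1, the ultra-high sulfur gene at the far end of the chromosome 11 cluster, 18-fold higher.

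Members that were not called at 12 days were a pair of low high glycine-tyrosine genes. Krtap19-5 had 293, 51, 164 and 213 in distal digits, and 178, 17, 58 and 120 in proximal digits. Krtap20-2 had 611, 58, 375 and 267 in distal digits, and 186, 85, 48 and 26 in proximal digits. In both genes the groups overlapped and distal replicate 2 was the lowest distal library, and their log2 differences were 1.14 ± 0.75 and 1.85 ± 0.80 (SE; limma, adjusted p = 0.302 and 0.106). Within subfamilies of several members, log2 differences at 12 days ran between 3.35 and 4.39 in the 8 genes of subfamily 4, 2.62 and 3.05 in the 4 genes of subfamily 6, 2.63 and 2.68 in the 3 genes of subfamily 3, and 3.23 and 4.18 in the 3 genes of subfamily 1.

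**Figure D3:**
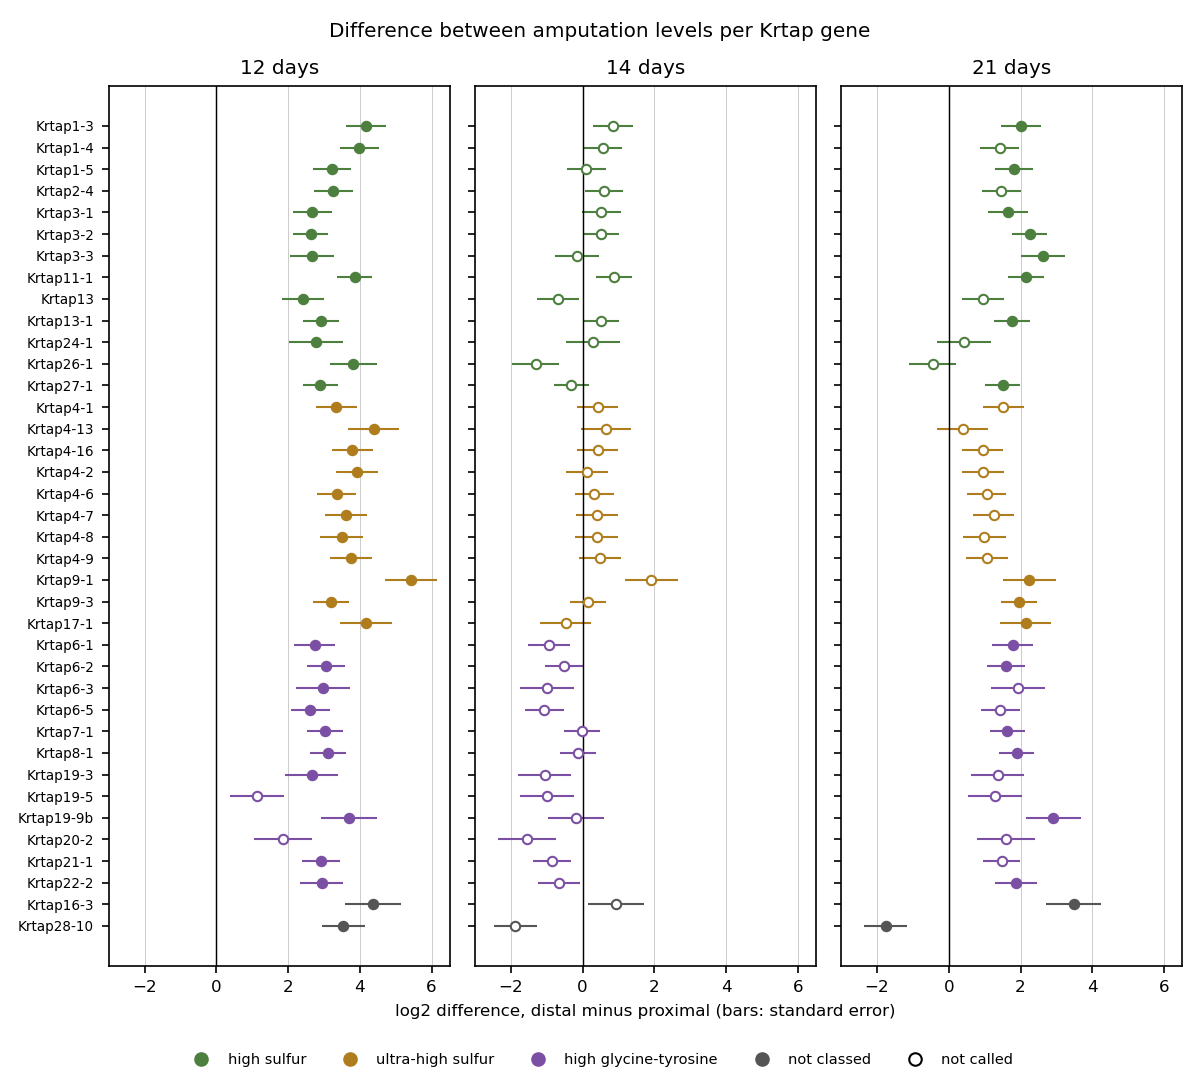
Log2 difference between distal and proximal digits (horizontal axis, distal minus proximal, bars for the standard error) for each Krtap gene at 12, 14 and 21 days, coloured by class, filled where called at adjusted p under 0.05. At 12 days all 38 points lie right of 0, at 14 days 20 do and all 12 high glycine-tyrosine genes lie left of it, and at 21 days 36 lie right of 0 while Krtap26-1 and Krtap28-10 lie left.

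At 14 days no member was called. The count was 0 of 38 with limma, where 5.39% of all rows were called in either direction. An unadjusted p under 0.05 was found in 2 members and 20.7% of all rows, and limma-voom with sample quality weights called 0 members and 4.49% of all rows. Leaving out proximal replicate 2 at 14 days gave 1 call, lower in distal digits, and leaving out proximal replicate 4 gave 1, higher. Differences ran between -1.87 and 1.92 on the log2 scale, with a median of 0.11 and 20 of 38 above 0. The classes lay on different sides of 0. None of the 12 high glycine-tyrosine genes had a positive difference (median -0.89, range -1.55 to -0.01), whereas 9 of 13 high sulfur genes (median 0.53) and 10 of 11 ultra-high sulfur genes (median 0.41) did. By position, 16 of 18 genes on chromosome 11 and 4 of 19 on chromosome 16 were above 0. These are descriptions of differences that did not pass the test gene by gene, and the difference between classes was not tested.

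Krtap21-1, a high glycine-tyrosine gene, had 11009, 21244, 19178 and 18771 in distal digits at 14 days, and 27582, 16981, 49239 and 38409 in proximal digits. The groups overlapped in replicate 2 of the proximal digits, and proximal replicate 3 was the highest (log2 -0.85 ± 0.53, SE; limma, adjusted p = 0.382). Krtap20-2, of the same class, had 280, 192, 175 and 89 in distal digits, and 331, 470, 565 and 713 in proximal digits. It was the only member whose groups did not overlap at 14 days, where 6.28% of all rows were higher and 5% lower in distal digits without overlap (log2 -1.55 ± 0.80, SE; limma, adjusted p = 0.276). Krtap7-1 had 20828, 27785, 22859 and 30050 in distal digits, and 33058, 20901, 15425 and 38297 in proximal digits (log2 -0.01 ± 0.50, SE; limma, adjusted p = 0.994). The proximal libraries spread on both sides of the distal ones, and the standard error leaves room for a difference in either direction.

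Krtap9-1 at 14 days had 308, 1131, 1599 and 2359 in distal digits, and 136, 180, 154 and 1677 in proximal digits. Distal replicate 1 and proximal replicate 4 lay on the far side of their groups (log2 1.92 ± 0.73, SE; limma, adjusted p = 0.129). Krtap28-10 had 7, 12, 23 and 31 in distal digits, and 203, 18, 46 and 77 in proximal digits, a difference in the other direction that also missed the threshold (log2 -1.87 ± 0.60, SE; limma, adjusted p = 0.0716).

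At 21 days the family was again higher after distal amputation, for fewer genes and by less than at 12 days. Of the 38 genes, 18 were called higher, where 8.22% of all rows were, and 1 was called lower, where 9.43% of all rows were. The median log2 difference was 1.56, against -0.05 over all rows, and 36 members lay above 0. In 15 members the distal libraries lay above the proximal ones without overlap, where 8.58% of all rows did. The called genes were 8 of 13 high sulfur, 3 of 11 ultra-high sulfur and 6 of 12 high glycine-tyrosine genes, with Krtap16-3. With limma 0 of the 8 genes of subfamily 4 were called (log2 0.38 to 1.52), 2 of them had an unadjusted p under 0.05 and 1 was called with limma-voom. All 3 genes of subfamily 3 were called (1.65 to 2.63). Without replicate 4 of distal at 21 days 8 members were called, all higher, with a median of 1.14, and without that library and proximal replicate 1 at 12 days 13 were. The count was 12 without distal replicate 1 and 7 without proximal replicate 2 or 3. Krtap11-1, Krtap16-3, Krtap3-2, Krtap3-3, Krtap8-1 and Krtap9-3 were called under every alternative tried. With only the groups compared in the fit, 17 were called, 13 of them among the 19.

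Krtap16-3 had the largest difference at 21 days. It stood at 4058, 10330, 3298 and 27195 in distal digits, and at 1472, 386, 660 and 646 in proximal digits. The groups did not overlap and replicate 4 was the highest distal library (log2 3.48 ± 0.78, SE; limma, adjusted p = 0.00422). Without that library the log2 difference was 2.88, the lowest among the alternatives tried, and the gene was still called.

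Krtap3-2, a high sulfur gene next to Krtap3-3 in the chromosome 11 cluster, had 1539, 1497, 1442 and 4565 in distal digits, and 792, 214, 289 and 596 in proximal digits. Its lowest distal value was above its highest proximal one (log2 2.25 ± 0.49, SE; limma, adjusted p = 0.00372). Krtap8-1, a high glycine-tyrosine gene, had 24541, 27722, 17954 and 94635 in distal digits, and 17276, 4582, 7115 and 10779 in proximal digits. Here the lowest distal and the highest proximal library came close without crossing (log2 1.89 ± 0.50, SE; limma, adjusted p = 0.0119). Krtap3-3, which shares sequence with Krtap3-2, differed by 2.63 ± 0.61 (SE; limma, adjusted p = 0.00555), and Krtap19-9b, a high glycine-tyrosine gene, by 2.92 ± 0.78 (SE; limma, adjusted p = 0.0134). Krtap19-9b was not called without replicate 4 of distal at 21 days (log2 2.31).

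Krtap7-1 had 42097, 40908, 32195 and 152183 in distal digits at 21 days, and 30956, 8962, 14226 and 22875 in proximal digits. The groups did not overlap (log2 1.64 ± 0.50, SE; limma, adjusted p = 0.0276), and the call was lost without distal replicate 4 or proximal replicate 2 or 3, and with only the groups compared in the fit. Krtap4-6, the leading gene of subfamily 4, had 6383, 4608, 7391 and 9526 in distal digits, and 4675, 1655, 2673 and 5282 in proximal digits. Its groups overlapped (log2 1.06 ± 0.54, SE; limma, adjusted p = 0.181).

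Over days, the proximal digits carried most of the change. At 14 against 12 days, 37 of 38 members were called higher in proximal digits, where 7.35% of all rows were, with all 38 changes above 0, a median log2 change of 3.01 and 33 members higher without overlap (8.4% of all rows). Krtap19-5 alone was not called (log2 1.74). Without replicate 1 at 12 days 36 were called, with a median of 3.59. At 21 against 12 days, 32 members were called higher in proximal digits, where 12% of all rows were, with a median of 2.42 and 16 members higher without overlap (11.5% of all rows). The 6 that were not called were Krtap19-3, Krtap19-5, Krtap19-9b, Krtap20-2, Krtap3-3 and Krtap6-3. Without replicate 1 at 12 days 35 were called, with a median of 3.0. All 38 genes had their lowest mean log2 value in proximal digits at 12 days, where 17.4% of all rows did, and this held without replicate 1 of that group. At 21 against 14 days, Krtap19-9b alone was called lower in proximal digits, where 16.3% of all rows were, and 0 members higher with limma, where 12.5% of all rows were, with a median of -0.55. An unadjusted p under 0.05 was found in 2 members in the higher and 5 in the lower direction, against 39.9% of all rows, and limma-voom called 0 members and 26.3% of all rows.

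Krtap16-3 in proximal digits had 663, 181, 83 and 34 at 12 days, 574, 1836, 4045 and 4839 at 14 days, and 1472, 386, 660 and 646 at 21 days. Replicate 1 at 14 days was below replicate 1 at 12 days, so these groups overlapped, and the change between them was 3.96 ± 0.78 (SE; limma, adjusted p = 0.00154). Krtap1-5 in proximal digits had 7248, 1171, 1062 and 1656 at 12 days, 26998, 13135, 15159 and 30706 at 14 days, and 20775, 4302, 9467 and 17350 at 21 days. The 14-day libraries lay above all 12-day ones (log2 3.36 ± 0.54, SE; limma, adjusted p = 0.000247), whereas the 21-day libraries reached down among them. Krtap19-9b had 176, 89, 31 and 15 at 12 days, 205, 446, 1173 and 1587 at 14 days, and 417, 60, 97 and 169 at 21 days (21 against 14 days, log2 -2.16 ± 0.78, SE; limma, adjusted p = 0.0412). This call was lost without any of proximal replicates 2, 3 or 4 at 21 days or replicates 3 or 4 at 14 days, and also with limma-voom and with a replicate block. Other single libraries moved the count for this comparison: 5 members were called lower without replicate 1 at 21 days, 2 lower without replicate 2 at 14 days, 2 lower and 1 higher without replicate 1 at 14 days, and 2 higher without replicate 4 at 14 days.

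In distal digits few members passed the test between days. At 14 against 12 days 0 of 38 were called with limma, where 19.4% of all rows were called in either direction, and the median was -0.25. An unadjusted p under 0.05 was found in 2 members, Krtap26-1 and Krtap28-10, and 32.5% of all rows, and limma-voom called 0 members and 20.9% of all rows. Leaving out distal replicate 2 at 12 days or replicate 4 at 14 days gave 1 call, lower at 14 days. At 21 against 12 days 0 were called with limma, where 23.8% of all rows were, and the median was 0.93, or 0.46 without replicate 4 at 21 days. An unadjusted p under 0.05 was found in 6 members, all higher at 21 days, and 36.4% of all rows, and limma-voom called 1 member and 24.2% of all rows. Krtap11-1, Krtap13-1, Krtap1-5, Krtap24-1 and Krtap3-2, 5 members, were higher at 21 than at 12 days without overlap, where 9.01% of all rows were. At 21 against 14 days 4 were called higher, where 13.3% of all rows were: Krtap24-1 (log2 2.04), Krtap26-1 (1.86), Krtap6-1 (1.48) and Krtap27-1 (1.27). All 38 differences were above 0, with a median of 1.04, and 9 members were higher without overlap, where 11.5% of all rows were. Every library left out moved this count: to 0 without replicate 4 at 14 days, to 1 without replicate 1, 2 or 3 at 14 days or replicate 1 or 4 at 21 days, to 2 without replicate 2 at 21 days, and to 8 without replicate 3 at 21 days. Without replicate 4 at 21 days the median was 0.61. The highest mean log2 value of 36 members was in distal digits at 21 days, where 15.5% of all rows had theirs, and of 26 members without replicate 4.

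Whether the levels changed unequally over days was tested as the interaction of level and day, the distal change minus the proximal change. Between 12 and 14 days 33 of 38 members were called, all with the lower change in distal digits, where 5.08% of all rows were called in that direction. The median interaction was -3.29 on the log2 scale. Without proximal replicate 1 at 12 days 36 members were called, with a median of -3.85. The members not called were Krtap19-5, Krtap20-2, Krtap24-1, Krtap3-1 and Krtap3-2, at -2.10 to -3.40. Between 14 and 21 days 0 members were called with limma, where 1.9% of all rows were, and the median was 1.65. An unadjusted p under 0.05 was found in 19 members and 19.4% of all rows, and limma-voom called 0 members and 1.63% of all rows. Without proximal replicate 1 at 21 days 4 members were called, and without distal replicate 3 at 21 days 1. Between 12 and 21 days 9 were called, again with the lower change in distal digits, where 7.42% of all rows were, with a median of -1.44: Krtap1-4, Krtap26-1, Krtap28-10, Krtap4-13, Krtap4-16, Krtap4-2, Krtap4-6, Krtap4-9 and Krtap9-1. Without proximal replicate 1 at 12 days 18 members were called, and without that library and distal replicate 4 at 21 days 29. Leaving out any of distal replicate 3 or proximal replicate 3 at 12 days, distal replicate 2 at 21 days, or proximal replicate 1 or 4 at 21 days gave 5, and Krtap26-1, Krtap28-10, Krtap4-13, Krtap4-16 and Krtap4-2 were called under every alternative tried. By class the 9 were 6 of 11 ultra-high sulfur, 2 of 13 high sulfur and 0 of 12 high glycine-tyrosine genes (0 also at an unadjusted p under 0.05 and with limma-voom), with Krtap28-10. Each of these tests rests on the same libraries as the comparisons between levels.

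The balance between classes varied among the libraries. The summed value of the 12 high glycine-tyrosine genes over that of the 24 genes of the sulfur classes was 1.31, 0.826, 1.14 and 0.944 in distal digits and 1.12, 1.5, 1.81 and 1.09 in proximal digits at 12 days. At 14 days it was 1.02, 0.998, 0.871 and 0.635 in distal digits, and 1.08, 1.59, 3.48 and 1.29 in proximal digits. At 21 days it was 1.05, 1.07, 0.788 and 1.74 in distal digits, and 1.51, 0.981, 1.12 and 1.08 in proximal digits. Only at 14 days did the distal libraries all lie below the proximal ones. The highest ratio was in proximal replicate 3 at 14 days and the highest distal ratio in replicate 4 at 21 days. That proximal library also had the lowest limma-voom quality weight of the 24 libraries, 0.516. From 14 to 21 days in proximal digits, all 12 high glycine-tyrosine genes had a negative change (median -1.18) and 6 of 11 ultra-high sulfur genes a positive one (median 0.16), with 1 member called.

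**Figure D4:**
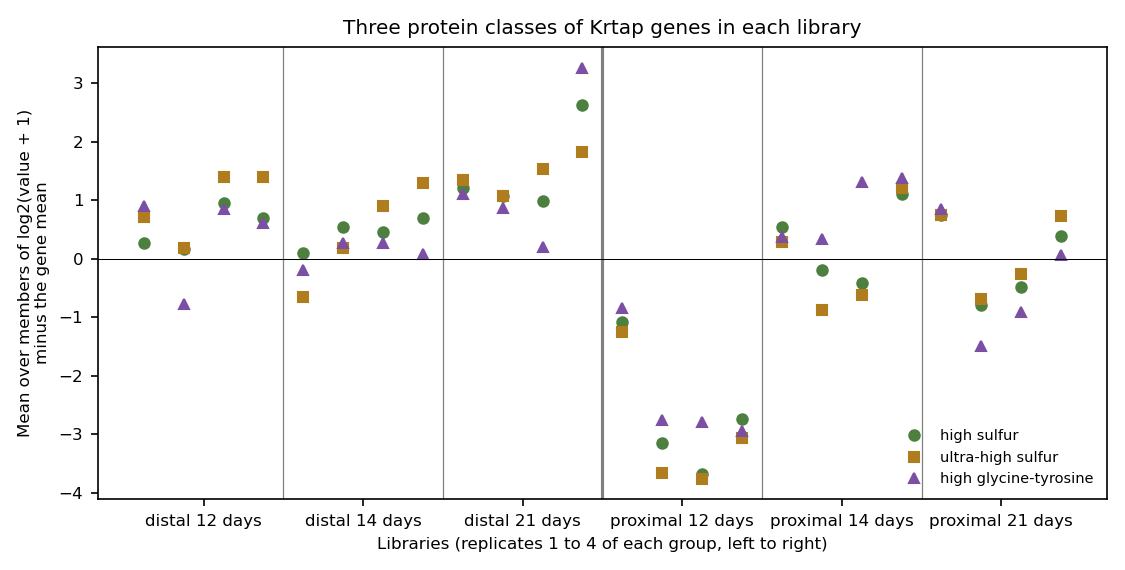
Mean over the genes of each class of log2(value + 1) after subtracting the gene's own mean over all 24 libraries (vertical axis), per library, with replicates 1 to 4 of each group left to right. By group mean all 3 classes are lowest in proximal digits at 12 days. For the high glycine-tyrosine genes, replicate 1 of that group lies above replicate 2 of proximal at 21 days. High glycine-tyrosine genes stand furthest above ultra-high sulfur genes in proximal replicates 3 and 2 at 14 days and distal replicate 4 at 21 days.

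A few low members departed from the rest. Krtap28-10, the gene on chromosome 1, had 40, 29, 117 and 51 in distal digits and 12, 1, 3 and 3 in proximal digits at 12 days, and 48, 45, 30 and 33 in distal digits and 195, 107, 94 and 152 in proximal digits at 21 days. It was thus higher in distal digits at 12 days (log2 3.54 ± 0.60, SE; limma, adjusted p = 0.000268) and lower at 21 days (log2 -1.75 ± 0.60, SE; limma, adjusted p = 0.0471), both without overlap (10.2% of all rows were lower without overlap at 21 days). Its level in proximal digits at 21 days was 137 ± 46.0, against 4.75 ± 4.92 in proximal digits at 12 days (SD, n = 4 each), the largest change over days in the family (log2 4.87 ± 0.60, SE; limma, adjusted p = 3.13e-06). Its interaction of level and day between 12 and 21 days was -5.29 ± 0.85 (SE; limma, adjusted p = 0.000279). The call at 21 days was lost under 11 of 17 alternatives, with adjusted p up to 0.108.

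Krtap26-1, a high sulfur gene (chromosome 16, 88646824 to 88647796, minus strand), had 252, 144, 358 and 447 in distal digits and 75, 6, 9 and 27 in proximal digits at 12 days, then 91, 77, 136 and 50 in distal digits and 631, 135, 83 and 258 in proximal digits at 14 days. At 21 days it had 298, 203, 189 and 744 in distal digits, and 838, 340, 261 and 402 in proximal digits. The groups were apart at 12 days (log2 3.82 ± 0.65, SE; limma, adjusted p = 0.000283) and overlapped at 14 and 21 days. All 4 distal libraries at 14 days lay below all 4 at 12 days (log2 -1.72 ± 0.65, SE; limma, adjusted p = 0.069), the only member of which this was so, where 8.77% of all rows were lower without overlap.

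Krtap24-1, the lowest member, had 14, 38, 40 and 10 in distal digits and 3, 4, 2 and 1 in proximal digits at 12 days, and 42, 53, 56 and 364 in distal digits and 87, 44, 76 and 49 in proximal digits at 21 days. At 14 days it had 27, 20, 21 and 12 in distal digits, and 1, 26, 28 and 48 in proximal digits. The distal libraries at 21 days all exceeded those at 14 days (log2 2.04 ± 0.75, SE; limma, adjusted p = 0.0386), with replicate 4 far above the others, and without that library the call was lost. Krtap4-13 and Krtap9-1 ran against that library: in distal digits at 21 days Krtap4-13 had 167, 202, 264 and 40 and Krtap9-1 had 2303, 2859, 3224 and 1122, with replicate 4 the lowest in both, whereas 33 other members had their highest value there.

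**Figure D5:**
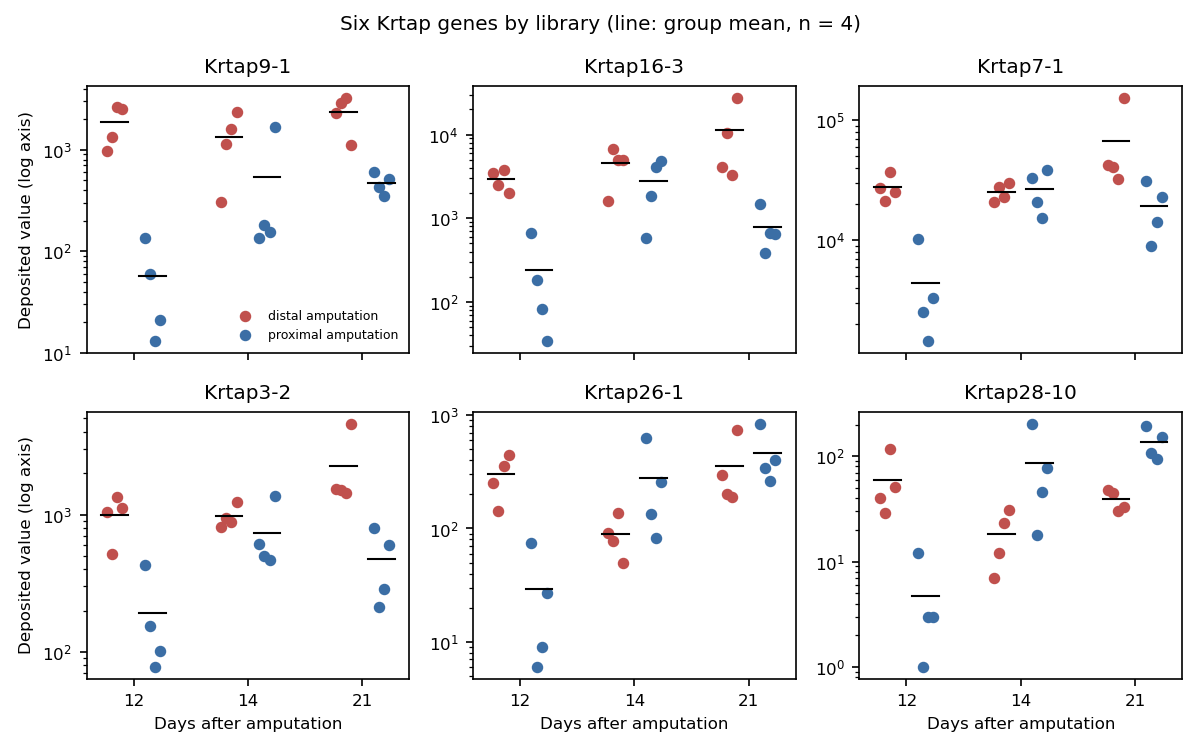
Deposited values (log axis) of 6 Krtap genes by days after amputation, 1 point per library with distal left of proximal and lines at the group means (n = 4). Krtap9-1, Krtap16-3, Krtap7-1 and Krtap3-2 have separate groups at 12 and 21 days, Krtap26-1 at 12 days, and Krtap28-10 is higher in distal digits at 12 days and lower at 21 days.

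The hard keratins, the filament proteins of this matrix, differed in the same comparisons. Of 15 hard keratin genes listed, 14 were measured. At 12 days 12 of the 14 were called higher in distal digits and 0 lower, and at 21 days 10 higher and 0 lower, with median log2 differences of 3.31 and 1.79, where 9.25% of all rows were called higher at 12 days and 8.22% at 21 days. At 14 days 0 were called with limma or limma-voom, 3 had an unadjusted p under 0.05, and the median was 0.14, where 5.39% of all rows were called. Krt33a, a type I hair keratin, differed most among them, by 4.72 ± 0.71 at 12 days and 3.28 ± 0.71 at 21 days (SE; limma, adjusted p = 6.95e-05 and 0.00331). Krt84 and Krt36 were not called at 12 days (log2 0.48 and 1.03). Distal replicate 4 at 21 days had a summed hard keratin value of 1307548, against 486122 to 709155 in the other libraries of its group. The hard keratin counts at 21 days are given with it only. In proximal digits all 14 were called higher at 14 against 12 days, where 7.35% of all rows were. The interaction of level and day between 12 and 14 days was called for 12, all with the lower change in distal digits, where 5.08% of all rows were.

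Transcription factors of hair and nail differentiation moved less. Of 10 measured, 6 were called higher and 1 lower in distal digits at 12 days, 1 higher at 14 days, and 6 higher and 1 lower at 21 days. Of all rows, 9.25% were called higher and 11% lower at 12 days, 5.39% in either direction at 14 days, and 8.22% higher and 9.43% lower at 21 days, so that 1 call of 10 is near the share of all rows. Lef1, which relays Wnt signals in hair and nail matrix, differed by 2.24 ± 0.44 at 12 days, and Msx2, a homeobox factor of the nail matrix and the digit, by 0.95 ± 0.27 at 14 days and 2.34 ± 0.27 at 21 days (SE; limma, adjusted p = 0.000984, 0.0438 and 7.92e-06). Hoxc13 differed by 1.56 ± 0.22 at 12 days, -0.20 ± 0.22 at 14 days and 0.65 ± 0.22 at 21 days, and Foxn1, the nude factor that acts on hair and nail keratins, by 1.24, 0.06 and 1.07. Gata3 was the gene called lower, at -0.80 at 12 days and -0.81 at 21 days. Of 6 measured genes for cortex enzymes, calcium-binding proteins and related products, 2 were called higher at 12 days and at 21 days: Gprc5d, an orphan receptor of hardening hair cells, by 5.08 ± 0.64 and 2.42 ± 0.64, and S100a3, a calcium-binding protein of the hair cuticle, by 2.65 ± 0.48 and 2.10 ± 0.48 (SE; limma, adjusted p = 1.05e-05, 0.0128, 0.00043 and 0.00471). Padi1, an enzyme that converts arginine to citrulline in proteins, was called lower at 12 days (log2 -1.35). At 14 days 0 of the 6 were called with limma or limma-voom and 3 had an unadjusted p under 0.05.

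Markers of other cells in the digit were read mainly in the comparisons between levels, and their part in the Krtap differences was not tested. Their counts stand against the same shares of all rows as above, and a single call in these short lists is not read as a difference between the groups. In bulk tissue, fewer cells of a type and less RNA per cell cannot be told apart. At 12 days all 3 proliferation genes were called higher in distal digits, with summed values of 9425 to 13164 in distal and 6147 to 7663 in proximal libraries, and at 21 days all 3 were called lower, with 5525 to 7762 against 7964 to 12372. The 8 interfollicular epidermis genes summed to 618446 to 735060 in distal and 812786 to 1048656 in proximal digits at 12 days, with 1 of 8 called, lower. The members did not all go the same way. Mean values of Krt14 and Krt5 were 126307 and 35917 in distal against 100907 and 32857 in proximal digits. Those of the other members were lower in distal digits, with Krt2 at 227603 against 352816. The 4 nail bed and wound epidermis keratins summed to 110791 to 247200 in distal and 57159 to 129538 in proximal digits, with 1 of 4 called, higher. The 3 dermis genes summed to 88670 to 130142 in distal and 215860 to 258634 in proximal digits, with 1 of 3 called, lower. Col3a1 made up most of that sum, with means of 89735 in distal and 216901 in proximal digits. Dcn had 5119 and 5843, and Lum 9577 and 11114. The 3 cartilage genes summed to 1025 to 2205 in distal and 2889 to 8066 in proximal digits, with 2 of 3 called, lower. Of 5 outer root sheath genes, 2 were called higher and 1 lower at 12 days, with sums of 2909 to 3293 in distal and 2735 to 3138 in proximal digits. At 12 days 0 of the 4 bone genes, with sums of 111066 to 241404 in distal and 190415 to 322431 in proximal digits, and 0 of the 2 measured marrow genes, with sums of 294 to 10279 in distal and 104 to 11173 in proximal digits, were called with limma or limma-voom, and 0 had an unadjusted p under 0.05. At 14 days 1 of 8 epidermis genes was called lower and 1 of 3 dermis genes higher, and at 21 days 2 of 8 epidermis genes and 1 of 4 nail bed keratins were called lower and 1 cartilage, 1 marrow and 1 dermis gene higher. No listed marker that had a row was at 0 throughout a group, and markers without a row could not be judged. Of 4 marrow genes listed, Hbb-bs and Hba-a1 had a row, and Mpo and Elane did not. Some lists also moved between days, with 0 genes called the other way. In distal digits from 12 to 14 days 4 of 8 epidermis genes were called lower (19.4% of all rows in either direction). From 14 to 21 days 4 of 8 epidermis genes were called higher there (13.3% of all rows). The median log2 change of the 4 bone genes was then -3.12. In proximal digits from 14 to 21 days 3 of 4 bone genes were called lower (16.3% of all rows). Of 9 inner root sheath genes only Tchh had a row, at 82 to 97 in distal and 75 to 103 in proximal digits at 12 days. The listed genes without a row may have been low, and the inner root sheath of the hair follicle could not be checked beyond Tchh. At 21 days Tchh had 122, 108, 76 and 81 in distal digits, and 126, 1494, 364 and 240 in proximal digits. It was called lower, as were 9.43% of all rows, and this single call is not read as a difference.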

How the data were processed

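The authors deposited 1 table of whole numbers with a gene name and length per row. Every row reached at least 20 in some library, so lower rows may have been left out before deposit. Genes without a row may thus be low, and shares of all rows are shares of the rows kept. Per the submitters' processing notes, reads of ribosomal RNA-depleted total RNA were handled with cutadapt, STAR 2.5.4b, featureCounts 1.6.3 (Subread) and mm10. The deposited values are treated as a score, because they are whole numbers that look normalised and rounded: upper quartiles differ little between libraries, and over the 9650 rows above 100 in every library the values have a direction with a spread 6.71 times below Poisson sampling. The sources used here state neither a normalisation nor a strand setting. Whether a factor was also removed across libraries before deposit is not stated and was not tested. In that case the spread between libraries, and with it the p-values, may be too small. Because the values are treated as a score, no count model or counting interval was applied in the main test. The alternative limma-voom, a method for counts, took these values as counts, with the same library size set for every library. Its calls and quality weights thus rest on a score of unknown depth. Without a strand setting, reads from overlapping antisense genes cannot be separated.

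Fits used limma 3.58.1 in R 4.3.3 on log2(value + 1), with 6 group means over all 24 libraries, an intensity trend, 18 residual and 3.91 prior degrees of freedom and Benjamini-Hochberg adjustment over 15055 rows; steps were tested on simulated data. Named genes are the highest per 1000 bases of each subfamily, the 4 largest called changes of each comparison between levels and the 2 largest of each other comparison; other genes are named where a count is small or a feature is singled out, and these were chosen after their values were seen. Members and lists were chosen with earlier results of these data known. Protein classes were to come from composition, but no protein sequences were used here, and textbook subfamily numbers took their place. Alternatives were median-ratio factors, table totals, pseudocounts of 0.5 and 8, leaving out rows with a mean under 50, fitting only the groups compared, a replicate block, limma-voom with quality weights, and leaving out single libraries. Leaving out both libraries that stood apart was chosen after seeing the data.

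Same-numbered replicates did not deviate together in every pair of any comparison (correlations of -0.27 to 0.71), and the numbers were not taken to pair the libraries. The highest correlation was in replicate 3 of proximal 14 against 12 days. In that comparison replicates 1, 2 and 4 gave 0.119, 0.315 and -0.014. Whether some same-numbered libraries are linked was not tested. Sequences came from RefSeq (GRCm38.p6) and positions from GENCODE vM21.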

Additional observations from a re-analysis of the deposited data

Results flagged for a closer look

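Dixon's 95% limit for the gap as a share of the group's range was applied to 150 groups of 4 libraries over the named genes. In 22 of them the highest library lay further from the others than that limit. Of these, 14 were values of distal replicate 4 at 21 days: 87486 for Krtap1-5, 101499 for Krtap6-2, 152183 for Krtap7-1, 94635 for Krtap8-1, 39665 for Krtap9-3, 39544 for Krtap13-1, 9196 for Krtap17-1, 3285 for Krtap20-2, 120271 for Krtap21-1, 66732 for Krtap22-2, 364 for Krtap24-1, 3297 for Krtap27-1, 27702 for Krtap3-3 and 4565 for Krtap3-2. Another 6 were values of proximal replicate 1 at 12 days, namely 7248 for Krtap1-5, 5213 for Krtap8-1, 2827 for Krtap9-3, 6354 for Krtap21-1, 2913 for Krtap22-2 and 264 for Krtap27-1. The remaining pair were values of proximal replicate 4 at 14 days. Krtap9-1 stood at 1677 there, against 136 to 180 in the other 3 libraries, and Krtap3-2 at 1367, against 466 to 613. Chance gives about 1 in 20 only for independent groups with a normal spread. These groups are 25 genes in the same 6 sets of libraries, on the deposited scale and not log2, so that rate does not hold here.

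The change over days was unequal between the amputation levels, by the test of the interaction with limma over all rows, in 21 named genes between 12 and 14 days. On the log2 scale (distal change minus proximal change) the high sulfur genes stood at -3.12 for Krtap1-5, -3.32 for Krtap1-3, -2.66 for Krtap2-4, -2.83 for Krtap3-3, -2.98 for Krtap11-1, -2.39 for Krtap13-1, -5.12 for Krtap26-1 and -3.21 for Krtap27-1. The ultra-high sulfur genes stood at -3.03 for Krtap4-6, -3.74 for Krtap4-13, -3.50 for Krtap9-1, -3.04 for Krtap9-3 and -4.64 for Krtap17-1. Among the high glycine-tyrosine genes the values were -3.56 for Krtap6-2, -3.03 for Krtap7-1, -3.24 for Krtap8-1, -3.88 for Krtap19-9b, -3.76 for Krtap21-1 and -3.59 for Krtap22-2, and the genes without a class gave -3.44 for Krtap16-3 and -5.41 for Krtap28-10. Among the 25 alternatives tried for each gene, the call was lost under 16 for Krtap16-3 (adjusted p up to 0.0990), 9 for Krtap3-3, 8 for Krtap9-1, 7 for Krtap13-1, 6 for Krtap2-4 and 5 for Krtap19-9b, and under none for the other named genes. Between 12 and 21 days 5 named genes were called: Krtap4-6 at -2.30, Krtap26-1 at -4.27, Krtap28-10 at -5.29, Krtap9-1 at -3.18 and Krtap4-13 at -4.00. Of these, Krtap9-1 lost the call under 14 and Krtap4-6 under 12 of 25 alternatives, and the other 3 under none.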

How the results depend on the processing

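Over all alternatives tried, no result of the 25 named genes reversed, 88 of 119 were called under every alternative and 31 lost the call under at least 1. Members called throughout were 35 of 36 at 12 days, 6 of 19 at 21 days, 33 of 37 for proximal 14 against 12 days, 28 of 32 for proximal 21 against 12 days, 25 of 33 for the interaction of level and day between 12 and 14 days, and 5 of 9 between 12 and 21 days. Counts moved in these other cases, and the cause was not tested. Fitting only the groups compared gave 1 call, lower, at 14 days, 1 for distal 14 against 12 days and 4 for distal 21 against 12 days, where limma-voom and a pseudocount of 8 each gave 1. For proximal 21 against 14 days limma-voom gave 0 and table totals 3. Table totals moved the median of all rows to -0.19 at 21 days and -0.20 for the interaction between 14 and 21 days.

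Without both libraries that stood apart, the counts were 2 for distal 14 against 12 days, 1 for distal 21 against 14 days, 6 for proximal 21 against 14 days and 29 for the interaction between 12 and 21 days. Leaving out single libraries gave 35 to 37 calls at 12 days, 0 to 1 at 14 days and 7 to 21 at 21 days. It gave 0 to 1 for distal 14 against 12 days, 0 to 8 for distal 21 against 14 days, 0 to 5 for proximal 21 against 14 days, 0 to 4 for the interaction between 14 and 21 days and 5 to 18 between 12 and 21 days. By the labels, same-numbered replicates share only a number. With a replicate block the counts were 36, 0 and 22 at 12, 14 and 21 days. They were 2 for distal 14 against 12 days and 1 for proximal 21 against 14 days (not Krtap19-9b). For the interaction between 12 and 21 days the count was 12. Krtap24-1 has no value with low rows left out. Depth is unknown, so the precision of low members such as Krtap24-1 and Krtap28-10 rests on the spread between libraries alone.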
